A study of Mus musculus with 6 samples.

Results

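Liver sinusoidal endothelial genes were followed as 10 transcripts in liver RNA from libraries labelled CRY1 KO and WT. They were chosen by symbol (Stab1, Stab2, Lyve1, Clec4g, Kdr, Pecam1, Fcgr2b, Gpr182, Dnase1l3 and Oit3), and 10 of 10 were present among the 15092 genes of the deposited table. The libraries were 3 labelled CRY1 KO, for a knockout of the cryptochrome gene Cry1, and 3 labelled WT, and all came from liver of the mouse strain C57BL/6J. The labels give no allele, age, sex, time of day or feeding state, and every title carries the prefix NC, which they do not explain. Whether replicates were separate animals is not stated, so p-values measure only the spread between these libraries, which may be technical. Each label names the hepatocyte as the cell type and describes no sorting, and transcripts of endothelial cells were present in all 6 libraries.

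Sinusoidal endothelial cells line the capillaries of the liver. Their wall is perforated by open pores and has no continuous basement membrane, so plasma reaches the hepatocytes. They are known as scavenger cells that take up hyaluronan, modified proteins and small immune complexes from blood, and as a source of Wnt and bone morphogenetic protein signals to hepatocytes. Cry1 encodes a cryptochrome, part of the negative arm of the circadian clock, which acts on CLOCK and BMAL1.

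The estimated counts of a library summed to between 79708703 and 91316332. Levels are CPM, estimated counts scaled to a common library size after TMM normalization. Differences are on the log2 scale, CRY1 KO minus WT, and SE is the standard error that edgeR gives. The 95% intervals of a log2 difference are from limma. A gene is called where its edgeR p, adjusted by the Benjamini-Hochberg method over 13816 tested genes, is under 0.05. Pearson correlations of log2 CPM between pairs of libraries ran from 0.992 to 0.993 in CRY1 KO, from 0.981 to 0.989 in WT and from 0.979 to 0.986 between the groups. Cry1 itself had 561, 521 and 445 estimated counts in the libraries labelled CRY1 KO, against 413, 579 and 694 in WT. Its log2 difference was -0.03 (SE 0.19, edgeR adjusted p = 0.954), so the value over the whole gene gives no check of the knockout labels, and CRY1 KO 1, 2 and 3 below name libraries by their labels alone.

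None of the 10 members was called, where 1.7% of all tested genes were called (235 of 13816). The smallest edgeR adjusted p of a member was 0.177, for Oit3, and the smallest by DESeq2 was 0.13. At an unadjusted edgeR p under 0.05 there were 4 members (Stab1, Fcgr2b, Gpr182 and Oit3), beside 20.7% of all tested genes, and by DESeq2 there were 3. That count was 0 with no scaling beyond library totals and 2 with upper-quartile scaling. With a library left out it was 0 without CRY1 KO 3, 1 without WT 2 and 2 without CRY1 KO 2. It was 4 without CRY1 KO 1, 4 without WT 1 and 5 without WT 3, and 3 or 4 under the remaining alternatives. The 20.7% is that of the edgeR fit with all libraries, and no such share was taken for the alternatives. The log2 differences ran from -0.21 for Clec4g to 0.38 for Lyve1, with a median of 0.23 beside -0.02 over all tested genes. They were positive in 8 of 10 members, beside 47.3% of all tested genes. Kdr was the member whose sign turned with scaling, so that 7 were positive with upper-quartile scaling or with no scaling beyond library totals. In 4 members (Stab1, Pecam1, Fcgr2b and Oit3) each library labelled CRY1 KO lay above each WT library, and in 0 members below, where groups did not overlap in 27.3% of all tested genes, 14.6% higher and 12.7% lower. In liver as a whole, a difference in the number of cells of a type and a difference in RNA per cell cannot be told apart.

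**Figure D1:**
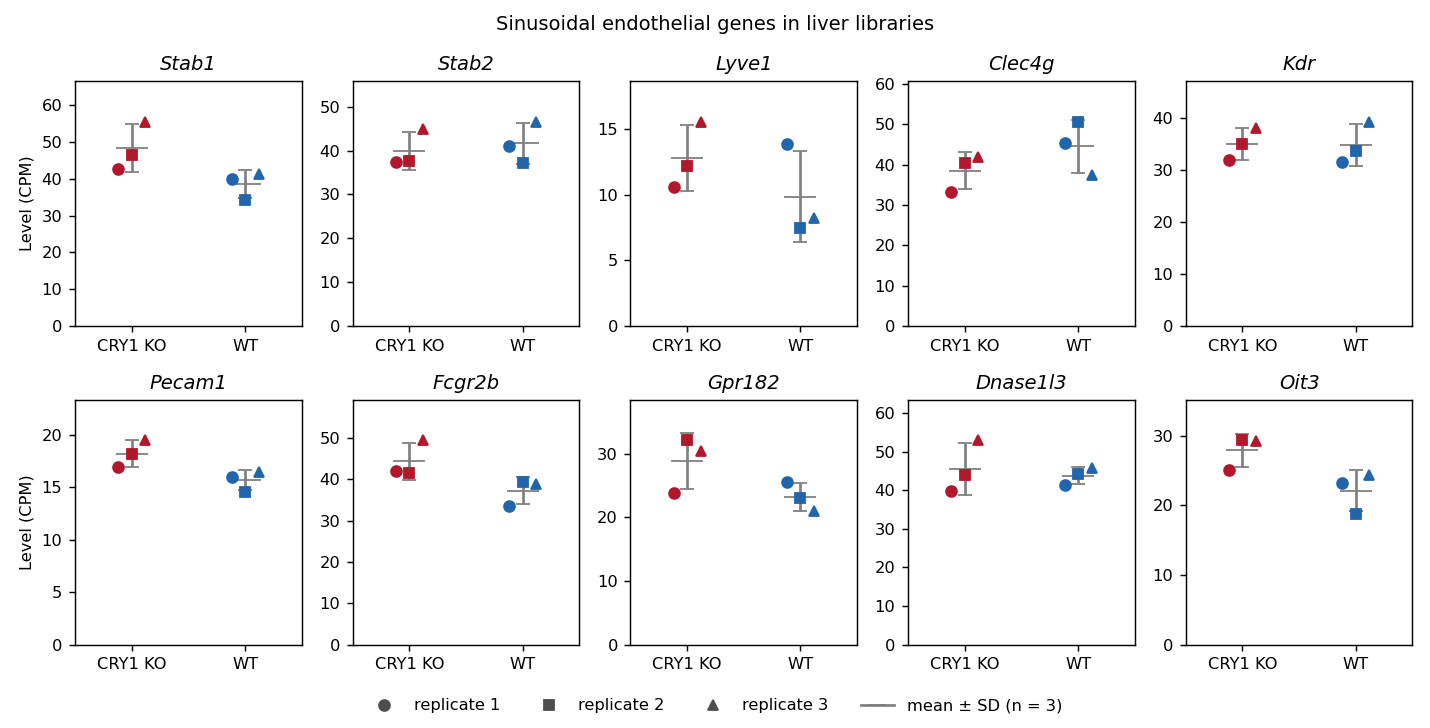
Level of each member in CPM (y axis, from 0) in 3 libraries labelled CRY1 KO (red, left) and 3 WT libraries (blue, right), with the marker giving the replicate and the grey bar the mean ± SD. Groups do not overlap for Stab1, Pecam1, Fcgr2b and Oit3, and CRY1 KO 3 is the highest of 6 libraries in 5 of the 10 members.

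Promoter windows from RefSeq (build GRCm38.p6, 250 bases before to 50 bases after the gene start) were matched by symbol for 5 of the 10 members, Stab1, Stab2, Clec4g, Kdr and Fcgr2b. The windows of 3 are shown: those of the related receptor genes Stab1 and Stab2, whose ratio is given below, and that of Clec4g, the member with the lowest difference. They lie on the minus strand at chr14:31168592-31168891 for Stab1, chr10:87007893-87008192 for Stab2 and chr8:3720602-3720901 for Clec4g. Each is printed 5′ to 3′ in the direction of the gene, with capitals at any match, on either strand, to the E-box CACGTG of clock factors, the nuclear receptor half-site AGGTCA, the GATA motif GATAA and the ETS core GGAAG.

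Stab1: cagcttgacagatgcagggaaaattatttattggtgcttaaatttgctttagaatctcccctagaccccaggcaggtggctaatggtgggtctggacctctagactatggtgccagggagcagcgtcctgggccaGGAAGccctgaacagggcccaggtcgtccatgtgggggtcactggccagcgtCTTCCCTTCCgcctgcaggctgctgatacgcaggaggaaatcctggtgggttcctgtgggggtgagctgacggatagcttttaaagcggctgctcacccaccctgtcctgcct
Stab2: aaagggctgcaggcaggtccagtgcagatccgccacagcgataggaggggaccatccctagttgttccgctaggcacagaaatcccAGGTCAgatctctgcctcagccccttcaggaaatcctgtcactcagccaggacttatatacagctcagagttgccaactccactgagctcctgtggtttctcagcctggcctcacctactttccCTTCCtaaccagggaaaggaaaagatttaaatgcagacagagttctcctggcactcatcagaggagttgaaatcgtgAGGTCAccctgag
Clec4g: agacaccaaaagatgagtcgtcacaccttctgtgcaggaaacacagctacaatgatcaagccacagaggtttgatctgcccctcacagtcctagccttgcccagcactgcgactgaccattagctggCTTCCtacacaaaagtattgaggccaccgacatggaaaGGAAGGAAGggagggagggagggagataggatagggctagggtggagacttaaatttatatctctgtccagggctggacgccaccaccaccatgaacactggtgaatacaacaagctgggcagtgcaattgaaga

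The E-box CACGTG was in 0 of the 5 member windows, beside 7.15% of all 32851 windows of the table. The letters AGGTCA were in 2 of 5 (Stab2, with 2 copies, and Fcgr2b), beside 16.3% of all windows. GATAA was in 0 of 5, beside 25.4%, and GGAAG was in 5 of 5, beside 71.4%. In the Clec4g window, 2 of the 3 GGAAG matches share a base. These matches describe letters in short windows and say nothing of binding.

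Stab1 encodes stabilin-1, a large scavenger receptor that takes up modified lipoproteins and matrix proteins. It stood at 42.8, 46.6 and 55.5 CPM in CRY1 KO 1, 2 and 3, against 40.1, 34.3 and 41.3 CPM in WT 1, 2 and 3. The CRY1 KO libraries were all above the WT libraries, with WT 3 the nearest. The mean was 48.3 ± 6.52 CPM in CRY1 KO and 38.6 ± 3.77 CPM in WT (SD, n = 3 each). This is 0.33 on the log2 scale (SE 0.12; 95% interval 0.05 to 0.60), with an adjusted p of 0.182 in edgeR.

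Stab2 encodes stabilin-2, the main receptor that clears hyaluronan from blood. It stood at 37.3, 37.5 and 45.0 CPM in CRY1 KO 1, 2 and 3, against 41.1, 37.2 and 46.5 CPM in WT 1, 2 and 3. The groups overlapped, with the lowest and the highest value both in WT. For Stab2 the log2 difference was -0.06 (SE 0.12, edgeR adjusted p = 0.805; 95% interval -0.32 to 0.20), which was 0.03 without WT 3. Stab2, Gpr182 and Oit3 lie on chromosome 10 with Cry1. In RefSeq's gene order (GRCm38.p6) 17, 242 and 362 protein-coding genes lie between Cry1 and Stab2, Gpr182 and Oit3. Of these 10, 166 and 259 were tested here and 0, 2 and 9 were called, beside 1.7% of all tested genes.

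The ratio of Stab1 to Stab2 estimated counts within a library does not depend on library scaling. It was 1.148, 1.241 and 1.235 in CRY1 KO 1, 2 and 3, against 0.9754, 0.9216 and 0.8875 in WT 1, 2 and 3. All CRY1 KO libraries had more Stab1 than Stab2 counts and all WT libraries had fewer. The mean ratio was 1.21 ± 0.0519 in CRY1 KO and 0.928 ± 0.0443 in WT (SD, n = 3 each). This pair was chosen after its values were seen, so the difference is a description and was not tested. As a log2 ratio the difference was 0.38, and it lay between 0.35 and 0.42 with any single library left out.

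Lyve1 encodes a hyaluronan-binding membrane protein of lymphatic and sinusoidal endothelium. It stood at 10.6, 12.2 and 15.6 CPM in CRY1 KO 1, 2 and 3, against 13.9, 7.48 and 8.24 CPM in WT 1, 2 and 3. WT 1 lay inside the CRY1 KO range, while WT 2 and WT 3 lay below it. Lyve1 varied more than any other member over the 6 libraries, by 2.08-fold between the lowest and the highest. The log2 difference was 0.38 (SE 0.25, edgeR adjusted p = 0.434; 95% interval -0.17 to 0.99), and it was 0.70 without WT 1 (edgeR adjusted p = 0.0677) and 0.21 without WT 2.

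Clec4g encodes LSECtin, a C-type lectin of sinusoidal endothelial cells. It stood at 33.2, 40.4 and 41.9 CPM in CRY1 KO 1, 2 and 3, against 45.4, 50.6 and 37.4 CPM in WT 1, 2 and 3. WT 1 and WT 2 were above all CRY1 KO libraries and WT 3 lay among them. It had the lowest log2 difference of the members, -0.21 (SE 0.13, edgeR adjusted p = 0.409; 95% interval -0.51 to 0.10), which was -0.32 without WT 3 and -0.11 without WT 2.

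Fcgr2b encodes the inhibitory Fc gamma receptor IIb, through which sinusoidal endothelium takes up small immune complexes, and which B cells and macrophages also carry. It stood at 42.0, 41.6 and 49.4 CPM in CRY1 KO 1, 2 and 3, against 33.5, 39.4 and 38.8 CPM in WT 1, 2 and 3. The groups did not overlap, with the nearest libraries CRY1 KO 2 and WT 2. On the log2 scale Fcgr2b differed by 0.25 (SE 0.11, edgeR adjusted p = 0.229; 95% interval 0.01 to 0.49). The 12 Kupffer cell markers summed to between 242 and 246 CPM in CRY1 KO, against 260 to 677 CPM in WT. The 7 B cell markers in the table summed to between 3.17 and 5.09 CPM in CRY1 KO, against 8.20 to 14.2 CPM in WT. Without Jchain, a gene of antibody-secreting cells, the other 6 summed to 3.58, 2.23 and 2.55 CPM in CRY1 KO, against 2.36, 4.95 and 4.96 CPM in WT, so that the groups overlapped. This sum was added after the values were seen. The part of these cells in the Fcgr2b value was not tested.

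Kdr encodes VEGFR2, the main signalling receptor for vascular endothelial growth factor. It stood at 32.0, 34.9 and 38.1 CPM in CRY1 KO 1, 2 and 3, against 31.5, 33.6 and 39.3 CPM in WT 1, 2 and 3. The WT libraries spanned the whole CRY1 KO range. On the log2 scale Kdr differed by 0.01 (SE 0.11, edgeR adjusted p = 0.981; 95% interval -0.24 to 0.26), and its sign turned to -0.02 with no scaling beyond library totals and to -0.03 with upper-quartile scaling.

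Pecam1 encodes CD31, an adhesion protein of endothelial junctions that platelets and leukocytes also carry. It stood at 16.9, 18.1 and 19.5 CPM in CRY1 KO 1, 2 and 3, against 16.0, 14.6 and 16.4 CPM in WT 1, 2 and 3. The groups did not overlap, with CRY1 KO 1 close to WT 3. On the log2 scale Pecam1 differed by 0.22 (SE 0.10, edgeR adjusted p = 0.264; 95% interval -0.02 to 0.45). Cdh5, the VE-cadherin gene of the same junctions, stood between 20.7 and 23.4 CPM in CRY1 KO and between 19.5 and 22.8 CPM in WT (log2 0.02), and was named after its values were seen.

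Gpr182 encodes an atypical receptor that binds and removes chemokines without G protein signalling. It stood at 23.8, 32.1 and 30.5 CPM in CRY1 KO 1, 2 and 3, against 25.5, 23.0 and 21.0 CPM in WT 1, 2 and 3. CRY1 KO 1 lay among the WT libraries, and the other two were above them. For Gpr182 the log2 difference was 0.31 (SE 0.13, edgeR adjusted p = 0.225; 95% interval 0.01 to 0.61).

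Dnase1l3 encodes a secreted nuclease that digests DNA in chromatin, made by endothelial and myeloid cells. It stood at 39.8, 43.9 and 52.9 CPM in CRY1 KO 1, 2 and 3, against 41.5, 44.2 and 45.7 CPM in WT 1, 2 and 3. All WT libraries lay inside the CRY1 KO range. The log2 difference was 0.06 (SE 0.12, edgeR adjusted p = 0.814; 95% interval -0.21 to 0.31), and it was -0.06 without CRY1 KO 3.

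Oit3 encodes a secreted zona pellucida domain protein used as a marker of these cells in mouse liver. It stood at 25.1, 29.3 and 29.2 CPM in CRY1 KO 1, 2 and 3, against 23.2, 18.8 and 24.3 CPM in WT 1, 2 and 3. The groups did not overlap, with CRY1 KO 1 close to WT 3. The mean was 27.9 ± 2.43 CPM in CRY1 KO and 22.1 ± 2.91 CPM in WT (SD, n = 3 each). This is 0.33 on the log2 scale (SE 0.12; 95% interval 0.06 to 0.62), with an adjusted p of 0.177 in edgeR. The 95% intervals of Stab1, Fcgr2b, Gpr182 and Oit3 lay above 0, but limma, like edgeR, called none of the 10 members after adjustment over all genes.

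**Figure D2:**
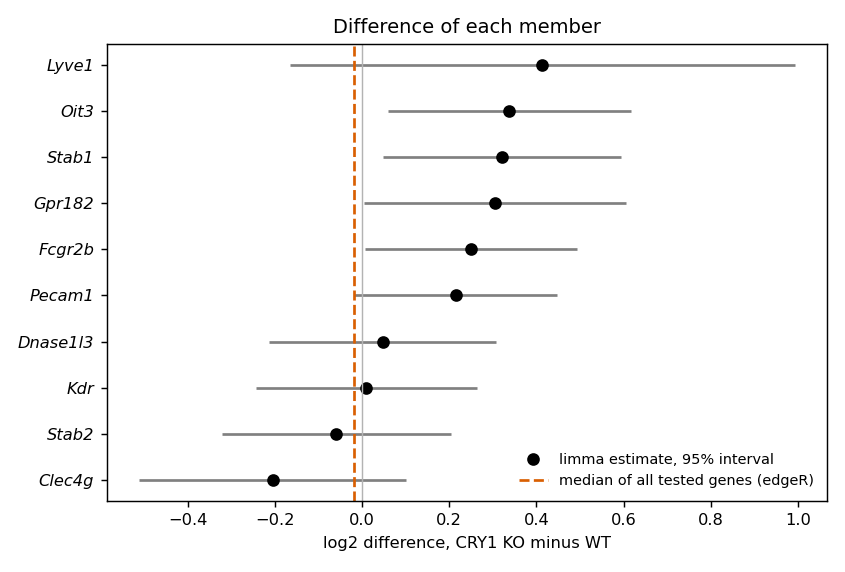
Log2 difference, CRY1 KO minus WT, of each member (points, limma) with its 95% interval (lines). The intervals of Stab1, Oit3, Gpr182 and Fcgr2b lie above 0, those of the other 6 members cross it, and the dashed line is the edgeR median of all tested genes, -0.02.

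The members did not separate the libraries by label as a group. The summed level of the 10 was 303, 337 and 377 CPM in CRY1 KO 1, 2 and 3, against 312, 303 and 319 CPM in WT 1, 2 and 3. CRY1 KO 1 lay at the WT level, and CRY1 KO 3 was the highest library. The mean sum was 339 ± 37.1 CPM in CRY1 KO and 311 ± 7.99 CPM in WT (SD, n = 3 each). In CRY1 KO 3 all 10 members stood above their own mean over the 6 libraries on the log2 scale, in CRY1 KO 2 there were 7 and in CRY1 KO 1 there were 3, while WT 1, 2 and 3 had 3, 1 and 3. WT 2 was the lowest of the 6 libraries in 5 members. The median log2 deviation of the members was 0.24 in CRY1 KO 3 and lay between -0.14 and 0.07 in the other 5 libraries, while that of all tested genes lay within 0.01 of 0 in each.

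The spread within a group was of the same order as these differences. The coefficient of variation of a member had a median of 11.5% in CRY1 KO and 10.5% in WT. The 4238 tested genes between the lowest and the highest member in mean CPM had medians of 7.16% and 10.1%. Pecam1 varied least in CRY1 KO (6.96%) and Dnase1l3 least in WT (4.88%), and Lyve1 varied most in both (19.8% in CRY1 KO and 35.3% in WT).

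Set against each other within a library, the members did not all keep the same proportions. For each member the log2 deviation from its own mean was compared with the median deviation of the other 9. Library scaling moves this measure only through the 0.5 CPM added before the log. Because the members are set against each other, some must be positive and some negative. Stab1 lay above the others in CRY1 KO (0.10, 0.08 and 0.13) and below them in WT (-0.02, -0.20 and -0.02). Stab2 lay below the others in CRY1 KO (-0.07, -0.22 and -0.10) and above them in WT (0.10, 0.03 and 0.25). Clec4g stood at -0.26, -0.13 and -0.22 in CRY1 KO, against 0.23, 0.45 and -0.10 in WT, and Kdr at -0.07, -0.10 and -0.11, against -0.07, 0.11 and 0.23. For Kdr the highest CRY1 KO and the lowest WT library were level at this rounding. The groups did not overlap in these 4 members and overlapped in the other 6. This depended on the measure. As a share of the members' summed CPM in a library, Stab2, Clec4g and Kdr overlapped. On that share Stab1, Pecam1 and Oit3 were higher in every CRY1 KO library, so only Stab1 kept the groups apart on both measures. Neither measure has a share over all tested genes to set beside it. No test was run on these relative values, and 3 against 3 libraries cannot give an exact permutation p below 0.1.

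**Figure D3:**
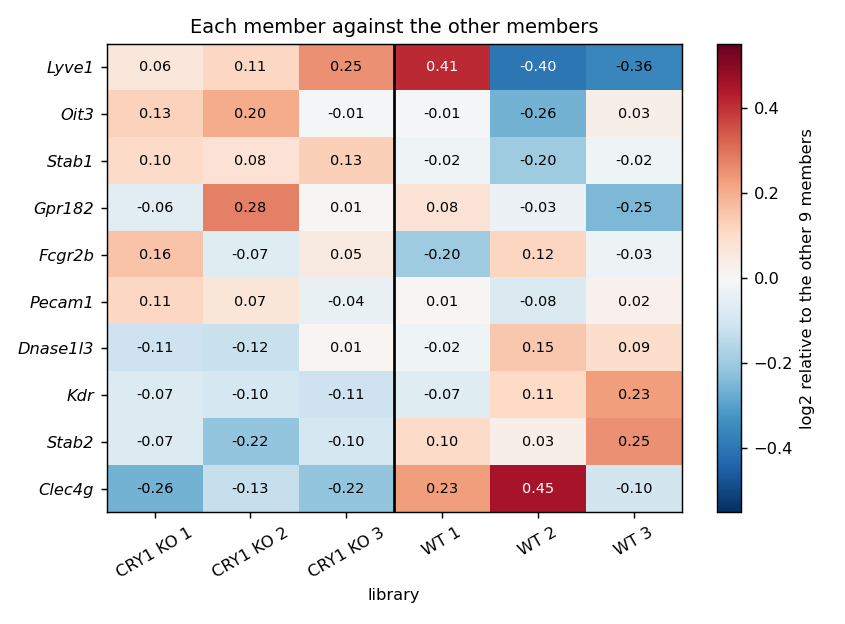
Log2 deviation of each member (rows) relative to the median of the other 9 members in the same library (columns, CRY1 KO left of the line and WT right of it). Stab1 is positive in all CRY1 KO libraries and negative in all WT libraries, and Stab2 is the reverse.

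Levels were compared between members per length, as CPM per kb of the principal transcript in GENCODE M21, which is not the authors' annotation, taking the longest where there were several. Clec4g was the most abundant, at 31.0 ± 3.74 CPM per kb in CRY1 KO and 35.8 ± 5.35 CPM per kb in WT (SD, n = 3 each). Its lowest library (26.7 CPM per kb) lay above the highest library of Fcgr2b (14.0 CPM per kb), which came second. Below Clec4g the order of mean levels was Fcgr2b, Dnase1l3, Oit3, Gpr182, Kdr, Stab1, Pecam1, Stab2 and Lyve1, and each neighbouring pair in it overlapped over the 6 libraries. Lyve1 was the least abundant, at 4.43 ± 0.877 CPM per kb in CRY1 KO and 3.41 ± 1.20 CPM per kb in WT (SD, n = 3 each). Stab1 and Stab2 have transcripts of 7999 and 8228 bases, so their CPM are close to comparable as they stand.

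Other genes of endothelial cells were taken from 6 lists by role, which hold 75 genes beside the members, 74 of them tested. None of the 74 was called by edgeR, and the smallest adjusted p was 0.119. An unadjusted edgeR p under 0.05 was found for 7, a smaller share than the 20.7% of all tested genes. Differences were positive in 43 of 74, beside 47.3% of all tested genes, with a median log2 difference of 0.045. Groups did not overlap in 5 higher and 3 lower genes, smaller shares than the 14.6% and 12.7% of all tested genes. Some of these genes are also made by hepatocytes or stellate cells, so their levels in whole liver are not endothelial alone.

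Among 11 scavenger and endocytic receptors, 5 of them members, 0 were called, 4 were positive and the median log2 difference was -0.06. The mannose receptor gene Mrc1, which completes the main clearance receptors of these cells and was named for that role, stood at 30.4, 34.2 and 36.1 CPM in CRY1 KO, against 38.1, 32.8 and 35.0 CPM in WT (log2 -0.07, SE 0.10, edgeR adjusted p = 0.71). Cd209b, a lectin gene, lay between 0.0704 and 0.273 CPM in CRY1 KO and between 0.177 and 0.791 CPM in WT, where single units of the table move the value.

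Of 15 tested ligands and receptors of the VEGF and angiopoietin pathways 0 were called, with 10 positive and a median of 0.05. Vegfa, the ligand of Kdr, which hepatocytes make, stood at 128, 141 and 132 CPM in CRY1 KO, against 99.3, 110 and 144 CPM in WT. Its log2 difference was 0.18 (SE 0.14, edgeR adjusted p = 0.479). Flt1, the high-affinity receptor for the same ligand, had a log2 difference of 0.16, Flt4, the receptor for VEGF-C, of 0.25, and the co-receptor gene Nrp2 of -0.36, and in each of these genes the groups overlapped.

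Of 16 genes of endothelial junctions and surface 0 were called, with 9 positive and a median of 0.04. S1pr1, the sphingosine-1-phosphate receptor of endothelium, had the smallest p of this list. It stood at 34.1, 27.7 and 29.1 CPM in CRY1 KO 1, 2 and 3, against 33.5, 61.4 and 59.3 CPM in WT 1, 2 and 3. WT 1 lay with the CRY1 KO libraries, at about the level of CRY1 KO 1, and WT 2 and WT 3 lay well above them. The log2 difference was -0.76 (SE 0.23, edgeR adjusted p = 0.134). Without WT 1 it was -0.99 and S1pr1 was called (edgeR adjusted p = 0.00314), and DESeq2 called it with all libraries (adjusted p = 0.00948). No other alternative called S1pr1. Without WT 1 edgeR called 359 higher and 206 lower of 13987 genes, and DESeq2 called 10.8% of all genes it tested. Mmrn2, a matrix protein gene of endothelium, had a log2 difference of 0.32 with groups that did not overlap, and the adhesion receptor gene Adgrf5 had 0.38, both short of the threshold.

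Of 15 endothelial transcription factors 0 were called, with 9 positive and a median of 0.05. Gata4, which is known in mouse to keep sinusoidal endothelium distinct from continuous endothelium, also had WT 1 apart from WT 2 and WT 3. It stood at 10.6, 10.5 and 9.73 CPM in CRY1 KO 1, 2 and 3, against 9.95, 20.8 and 20.4 CPM in WT 1, 2 and 3. WT 1 again lay inside the CRY1 KO range, and WT 2 and WT 3 lay well above it. The log2 difference was -0.73 (SE 0.27, edgeR adjusted p = 0.194), and it was -1.003 without WT 1 (edgeR adjusted p = 0.00294). DESeq2 called Gata4 with all libraries (adjusted p = 0.0432), and no further alternative called it.

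Epas1, which encodes the oxygen-regulated factor HIF-2α, stood at 146, 143 and 195 CPM in CRY1 KO, against 103, 97.1 and 133 CPM in WT. Its groups did not overlap, and the log2 difference was 0.54 (SE 0.16, edgeR adjusted p = 0.119). It was called by DESeq2 (adjusted p = 0.0247) and by edgeR without WT 3 (adjusted p = 0.0422), and under no other alternative. Without WT 3 edgeR called 477 higher and 367 lower of 13976 genes. Maf had a log2 difference of 0.27 with groups that did not overlap, and the flow-responsive factor gene Klf2 had -0.54 with groups that overlapped, neither of them called.

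Signals that sinusoidal endothelium releases made a list of 14 genes, of which 0 were called and 11 were positive, with a median of 0.24. Cxcl12, a chemokine gene, stood at 258, 234 and 267 CPM in CRY1 KO, against 178, 163 and 235 CPM in WT. WT 3 overlapped the lowest CRY1 KO library, and the log2 difference was 0.40 (SE 0.14, edgeR adjusted p = 0.164). It was called without WT 3 (log2 0.57, edgeR adjusted p = 0.0235) and under no other alternative. Kitl, the stem cell factor gene, had a log2 difference of 0.42, Bmp2 of 0.26 and the Notch ligand gene Dll4 of 0.38, none of them called. The genes of the Wnt pathway signals that pattern hepatocytes around the central vein, named for that role, had log2 differences of 0.02 for Wnt2, 0.23 for Wnt9b and -0.24 for Rspo3, with adjusted p of at least 0.522 in edgeR. These 3 genes were low, at most 5.70 CPM in any library.

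In the remaining list of 15 sinusoidal endothelial genes, 3 of them members, 0 were called and 9 were positive, with a median of 0.06. Tfpi, which encodes an inhibitor of the coagulation pathway, had the smallest p, at 4.39, 4.61 and 5.17 CPM in CRY1 KO, against 7.49, 6.93 and 5.42 CPM in WT. Its groups did not overlap, and the log2 difference was -0.49 (SE 0.16, edgeR adjusted p = 0.15). Ushbp1 had a log2 difference of 0.22 with groups that overlapped.

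Genes of vein, artery and capillary endothelium formed a list of 13 tested genes, of which 0 were called and 6 were positive, with a median of -0.10. Thbd, the thrombomodulin gene, stood at 5.96, 3.25 and 6.46 CPM in CRY1 KO, against 3.13, 2.94 and 1.76 CPM in WT. Its groups did not overlap, and the log2 difference was 1.002 (SE 0.31, edgeR adjusted p = 0.131; DESeq2 adjusted p = 0.0226). Efnb2, an arterial ephrin gene, had a log2 difference of 0.74 with groups that did not overlap, and Vwf, the von Willebrand factor gene, had 0.37. Ly6a had -0.88 and was called by edgeR without WT 3 (adjusted p = 0.0175) and under no other alternative. In a list of 6 lymphatic endothelial genes 0 were called. Prox1, which hepatocytes also make, had a log2 difference of 0.61 (edgeR adjusted p = 0.194; DESeq2 adjusted p = 0.0438), while Mmrn1, Ccl21a and Pdpn lay below 1 CPM in every library.

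The endothelial lists stood beside those of other liver cells as follows. The 12 hepatocyte markers had median deviations between -0.06 and 0.04 in the 6 libraries. Differences were positive in 5 of the 12, beside 47.3% of all tested genes. Groups did not overlap in 3 higher and 2 lower, beside 14.6% and 12.7% of all tested genes. Alb, the albumin gene, stood between 53544 and 62767 CPM in CRY1 KO and between 45882 and 54648 CPM in WT. Its log2 difference was 0.17, beside -0.16 for Apoa1, -0.13 for Ttr and -0.19 for Trf. Of the 12 markers Hnf4a was called (log2 0.73, edgeR adjusted p = 0.0389). It was not called without CRY1 KO 1, 2 or 3 or WT 2, where its edgeR adjusted p lay between 0.089 and 0.168. The 12 Kupffer cell markers all had negative differences, with a median of -0.84, and 0 were called by edgeR. Groups did not overlap in 8 of them, where 12.7% of all tested genes were lower without overlap. The 12 included Clec4f, Vsig4, Timd4 and Cd5l, at log2 differences of -0.87, -0.71, -0.53 and -1.05. DESeq2 called 6 of the 12, beside 10.8% of all genes it tested. Without WT 3, the WT library nearest to CRY1 KO in these markers, edgeR called 9. That fit called 477 higher and 367 lower of 13976 genes. No other alternative called any of the 12 Kupffer cell markers. Summed, they stood at 242, 244 and 246 CPM in CRY1 KO, against 677, 416 and 260 CPM in WT 1, 2 and 3. Divided by the summed members of the same library this gave 0.797, 0.723 and 0.652 in CRY1 KO, against 2.17, 1.37 and 0.814 in WT, with WT 3 close to CRY1 KO 1. The ratio was chosen after its values were seen and was not tested.

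Some other markers put WT 1 apart. Markers of red cells and platelets summed to 680, 585 and 739 CPM in CRY1 KO, against 2982, 1028 and 658 CPM in WT. In WT 1 the haemoglobin genes Hbb-bs, Hba-a1, Hba-a2 and Hbb-bt stood at 1062, 714, 594 and 465 CPM. The platelet genes Itga2b, Ppbp, Pf4 and Gp9 stood at 2.99, 1.29, 0.674 and 0.105 CPM there. Of these Ppbp and Gp9 were highest in WT 1 and Pf4 in CRY1 KO 1. Itga2b was higher in each CRY1 KO library than in any WT library. The median deviation of stellate cell markers was highest in WT 1, at 0.32, with WT 3 next at 0.16. Their sums there were 316 and 303 CPM. The summed members were not highest in WT 1, at 312 CPM. Of the members, Lyve1 and Clec4g had their second highest value there. B cell markers, T and NK cell markers and neutrophil markers summed to at most 5.09, 2.24 and 2.14 CPM in CRY1 KO and at most 14.2, 3.47 and 8.32 CPM in WT, and of these Jchain, of antibody-secreting cells, was called (log2 -2.45, edgeR adjusted p = 0.0194). Jchain was not called without CRY1 KO 1, 2 or 3, at edgeR adjusted p of 0.0522, 0.105 and 0.115. The bile duct markers Krt19, Krt7 and Epcam were at most 3.10 CPM in any library. What part these cells have in the members' values was not tested.

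**Figure D4:**
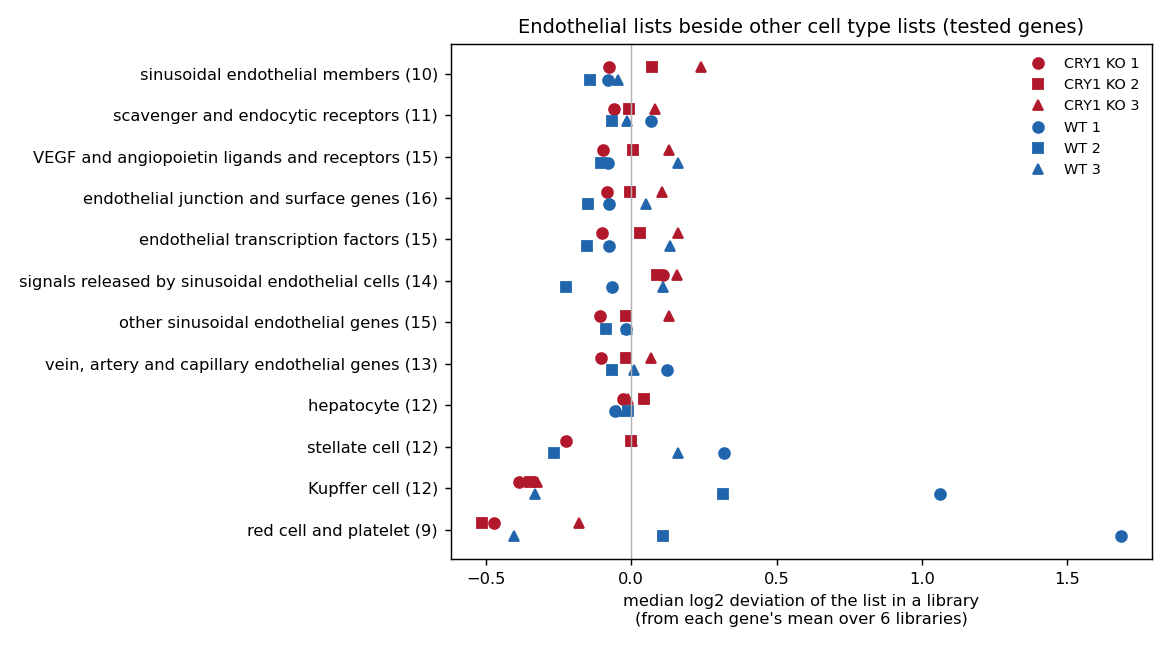
Median log2 deviation of each list in each library (x axis, deviation from each gene's mean over the 6 libraries, with 0.5 CPM added before the log), with CRY1 KO in red above WT in blue and the number of tested genes in brackets. The members and the endothelial lists plotted (the lymphatic list is not) lie between -0.22 and 0.24, while the Kupffer cell and the red cell and platelet lists reach 1.06 and 1.68 in WT 1.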

How the data were processed

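Liver RNA of 6 libraries, 3 labelled CRY1 KO and 3 WT, was analysed from a table of values per gene. The values were deposited by the authors as whole numbers and were taken as estimated counts, an inference from the values. The value 3 was more frequent than 1, 2 or 4 in each library, so a unit is not a single fragment. HISAT2 2.2.1, limma 3.42.2, StringTie 2.1.7 and Trim Galore 0.6.7 were used with build GRCm39 (mm39), per the submitters' processing notes. Order, settings, annotation and strand handling: not given in the sources used here. Genes were kept with filterByExpr (minimum count 10, minimum total 15), scaled by TMM and tested with edgeR 4.0.16 (quasi-likelihood, robust, Benjamini-Hochberg over all tested genes). Intervals are from limma 3.58.1 on log2 CPM (prior count 2). Alternatives were other scalings, no filter, DESeq2 1.42.0, limma, a replicate block and leaving out each library. The fit was tested on simulated data. It found 22.4% of the genes given a 1.5-fold change (15 of 67), 74.6% at 2-fold and 95.5% at 4-fold. Among the 146 genes called in that simulation, 18 had been given no change. The largest log2 difference of a member, that of Lyve1, is 1.30-fold. The absence of called members therefore does not show that differences of that size were absent. The members and lists were chosen with earlier results of these data known. Genes were named as the members, plus called genes and up to 4 genes of smallest p in each endothelial list, called genes and the first markers of other cell types, and Cry1. Others are marked where they appear. Low values carry less information than raw counts would.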

Additional observations from a re-analysis of the deposited data

How the results depend on the processing

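The count of called members was 0 under every alternative run. With all libraries their smallest adjusted p lay between 0.13 (DESeq2) and 0.327 (no scaling beyond library totals), and with a library left out between 0.0677 and 0.395. Their median log2 difference lay between 0.20 and 0.23 with all libraries and between 0.17 and 0.28 with a library left out. Signs turned for Kdr, to -0.017 with no scaling beyond library totals and -0.029 with upper-quartile scaling. With a library left out Kdr ran from -0.060 (WT 1) to 0.10 (WT 3), Dnase1l3 from -0.060 (CRY1 KO 3) to 0.15 (CRY1 KO 1) and Stab2 from -0.15 (CRY1 KO 3) to 0.030 (WT 3). The cause was not tested. Positive members numbered between 6 (without CRY1 KO 3) and 9 (without WT 3).

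Over all genes 235 were called. The count was 113 with no scaling beyond library totals, 1284 with DESeq2 and 94 with the replicate number as a block, and with a library left out it ran from 17 (without WT 2) to 844 (without WT 3). Deviations of same-numbered libraries correlated at -0.108, -0.0604 and 0.114, so the numbers were not taken to pair the samples, and not every library correlated best with its own number. The block called 0 members and 0 genes of the endothelial lists, and did not call Hnf4a (edgeR adjusted p = 0.0843). Of 130 values of single members under the alternatives, 7 changed sign and 123 kept sign and call. Of 208 list medians 35 moved by more than 0.117, the SD of the members' median between libraries of a group. The members had 629 or more estimated counts in each library. The summed B cell markers differed by -6.53 CPM (CRY1 KO minus WT), and by -1.31 CPM without Jchain.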
